A study of Capra hircus with 3 samples.

Results

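A set of 10 amino acid transporter genes known from mammary epithelium were followed through lactation in the Laoshan dairy goat. They were chosen by name (SLC3A2, SLC7A5, SLC7A8, SLC7A11, SLC7A1, SLC1A5, SLC1A1, SLC38A2, SLC6A14 and SLC36A1), and their rows were found by NCBI gene ID and summed by ID. Of them, 8 had deposited values, among 13023 protein-coding genes and 50041 loci in all. SLC7A8, the second large neutral amino acid light chain, has a gene ID in the gene table but no row with that ID among the values used, and SLC36A1, a proton-coupled transporter of the lysosome, was not matched to a gene ID, so neither is described further.

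Mammary gland tissue was taken surgically from 5 healthy goats, 4 years old and in their 3rd lactation, at 10 days (early), 90 days (peak) and 210 days (late) after parturition. RNA of the 5 goats was mixed at each stage, and each of the 3 pools gave 1 stranded library. No treatment was compared, and the values are FPKM, fragment numbers divided by transcript length and by library size, which the authors computed for each assembled locus. A single pool per stage gives no measure of how goats vary. No test was made, no p-value is given, and every difference below is a difference between pools without a replicate check.

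Milk protein is built from amino acids that the secretory epithelium takes from blood. Large neutral amino acids enter through heteromeric transporters, in which the heavy chain SLC3A2 brings a light chain of the SLC7 family to the plasma membrane and the light chain carries the amino acid. Cationic amino acids use SLC7A1, small neutral amino acids and glutamine use SLC1A5 and SLC38A2, and acidic amino acids use SLC1A1. System L and SLC1A5 work as exchangers, so that one amino acid leaves the cell as another enters, while SLC38A2 and SLC1A1 draw on the sodium gradient to concentrate their substrates.

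The libraries are named below by their labels. Where 3 levels follow each other without further words, they belong to the libraries labelled early, peak and late, in that order. One point bears on every comparison. Across annotated lncRNA genes, the column labelled peak followed the values the study gives for its L library more closely than those for its P library, and the column labelled late followed the P library more closely. Over 148 genes that the study lists as differentially expressed between P and L, log2 levels of L had correlations of 0.29, 0.63 and 0.19 with the columns labelled early, peak and late. Those of P had 0.57, 0.29 and 0.60. Over 135 genes listed in this way for E and L, the L levels had 0.10, 0.45 and 0.08. Over 67 genes listed for E and P, the P levels had 0.24, 0.20 and 0.34. Whether the labels peak and late are exchanged in the deposited values cannot be decided from them. Exchanging the names leaves each value as it is and swaps the stages in every statement about them.

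Protein-coding genes above 0 numbered 12958, 12999 and 12823, with median levels of 7.05, 7.23 and 6.92 FPKM. A single locus without a gene ID held 29.99%, 46.0% and 29.9% of the FPKM sum. The number of reads behind a level is unknown, and intervals were not computed. The milk protein gene LALBA stood at 70053 and 15214 FPKM in the libraries labelled early and peak but at 0 in that labelled late, so a listed 0 can be a failed estimate, and ratios were taken over genes above 0 in both libraries. All 11 luminal epithelial markers had values in every library, among them EPCAM at 77.8, 60.0 and 76.4 FPKM and KRT8 at 126, 196 and 154 FPKM (KRT8 is a keratin of luminal cells).

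The transporters were among the more abundant genes of the gland. Together the 8 genes gave 376 FPKM in the library labelled early, 257 FPKM in that labelled peak and 467 FPKM in that labelled late. SLC1A1, SLC38A2, SLC1A5, SLC3A2 and SLC7A5 stood in the top 7.53% of protein-coding genes above 0 in the library labelled early, in the top 13.8% in that labelled peak and in the top 5.54% in that labelled late. SLC6A14 and SLC7A1 lay lower, between the top 22.1% and the top 41.4%, and SLC7A11 lay near the bottom in all 3 libraries. The order of levels was the same in the libraries labelled early and late for the first 5 genes, namely SLC1A1, SLC38A2, SLC1A5, SLC3A2 and SLC7A5. In the library labelled peak, SLC38A2 came first and SLC3A2 second, ahead of SLC1A1 and SLC1A5. Neighbours in this order were often close: SLC38A2 exceeded SLC1A5 by 1.02-fold in the library labelled early and by 1.03-fold in that labelled late, and SLC1A1 exceeded SLC1A5 by 1.07-fold in that labelled peak. Without replicates, such neighbours cannot be ranked.

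**Figure D1:**
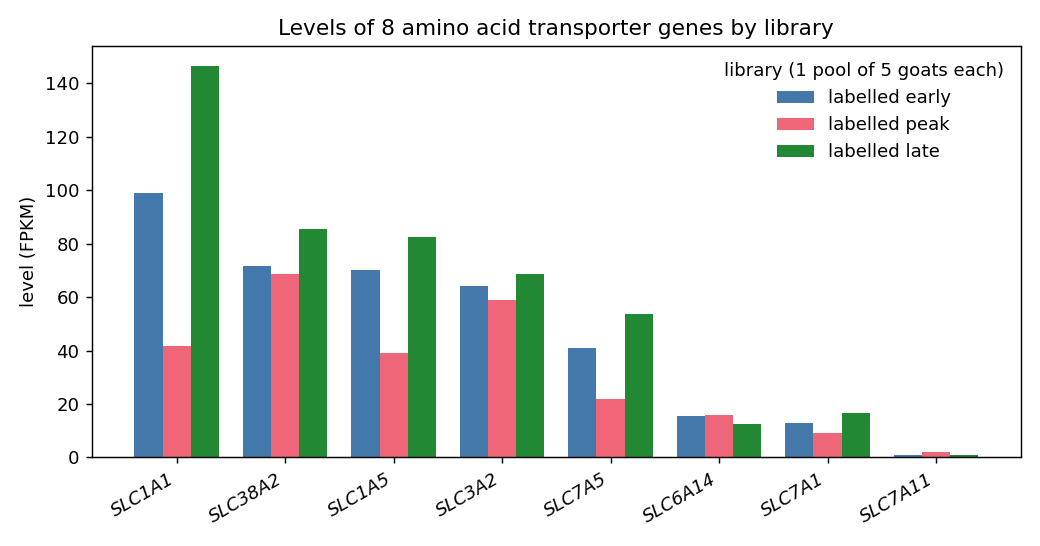
Level in FPKM (vertical axis, linear, from 0) of the 8 transporter genes with deposited values, 1 bar per library, each library being a pool of 5 goats, with no error bars because there is 1 library per stage. SLC1A1 spans the widest range, from 41.6 FPKM in the library labelled peak to 147 FPKM in that labelled late, while SLC3A2 and SLC38A2 have bars of like height in all 3 libraries.

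In the deposited values, 6 of the 8 genes shared one order, with the highest level in the library labelled late, the next in that labelled early and the lowest in that labelled peak. SLC7A11 and SLC6A14 had the opposite order. For SLC3A2 and SLC38A2, which are among the 6, the place of the library labelled peak depended on the scaling between libraries, as given below. Over the 12764 protein-coding genes above 0 in all 3 libraries, the first order was found in 26.4% and the second in 30.3%. The counts of genes below are read against such shares over all genes, because no test is possible here.

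Between the libraries labelled peak and early, 1 of the 8 genes was at least 2-fold apart, SLC1A1, which was lower in that labelled peak. Over 12937 protein-coding genes, 17.2% were at least 2-fold apart in this comparison, 10.5% higher and 6.69% lower in the library labelled peak. Of the calls over all genes, 61.1% were higher in that library, and the share was 72.5% with libraries scaled to an equal FPKM sum and 80.0% with the sum taken over loci that each hold under 1% of it. The median log2 ratio of the 8 genes was -0.32 against 0.01 over all genes. Of the 8 ratios, 6 were below 0, beside 49.5% over all genes.

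Between the libraries labelled late and early, none of the 8 genes was at least 2-fold apart, while 7.08% of 12777 protein-coding genes were, 1.64% higher and 5.44% lower in the library labelled late. The share of higher calls was 23.2%, and 34.0% with libraries scaled to an equal FPKM sum. The median log2 ratio of the 8 genes was 0.24 against -0.03 over all genes. Of the 8 ratios, 6 were above 0, beside 46.3% over all genes.

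Between the libraries labelled late and peak, 4 of the 8 genes were at least 2-fold apart. SLC1A1, SLC7A5 and SLC1A5 were higher in that labelled late, and SLC7A11 was lower. Over 12807 protein-coding genes, 24.7% were at least 2-fold apart, 8.57% higher and 16.2% lower in the library labelled late. The share of higher calls was 34.6%, and 21.8% with the sum over loci under 1% made equal. The median log2 ratio of the 8 genes was 0.59 against -0.02 over all genes. Each pair of these comparisons has 1 library in common.

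**Figure D2:**
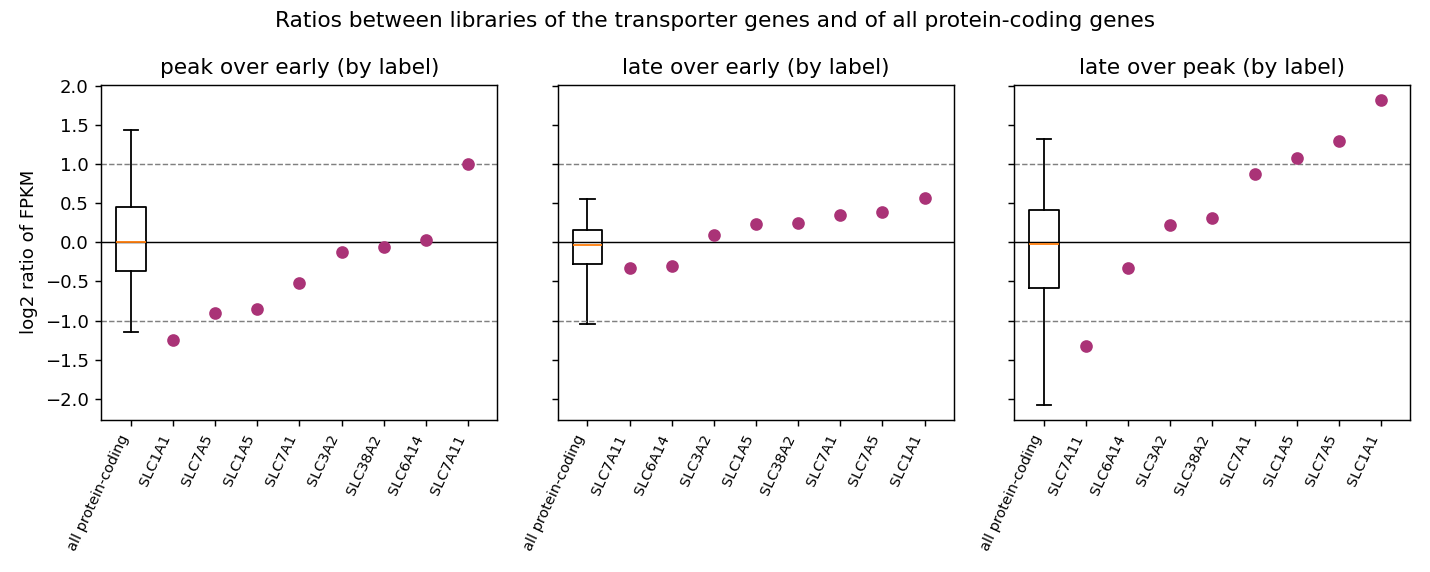
Log2 ratio of FPKM (vertical axis) in the 3 comparisons by label. The box holds all protein-coding genes above 0 in both libraries (line, median; box, 25th to 75th percentile; whiskers, 5th to 95th percentile), each point is 1 transporter gene in ascending order, and dashed lines mark 2-fold. SLC1A1 lies below the lower whisker (-1.15) for peak over early and above the upper whisker for late over early (0.55) and late over peak (1.33), and other scalings change the sign for peak over early of SLC3A2 and SLC38A2 and for late over peak of SLC3A2.

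SLC1A1 carries glutamate, aspartate and cysteine with sodium and is also known as EAAC1. It had 99.1 FPKM in the library labelled early, 41.6 FPKM in that labelled peak and 147 FPKM in that labelled late, the widest span among the 8 genes, with 3.52-fold between the highest and the lowest library. Its log2 ratio was -1.25 for peak over early, and 4.28% of protein-coding genes had a lower one. It was 0.57 for late over early, with 4.88% of genes higher, and 1.82 for late over peak, with 2.44% of genes higher. With the FPKM sum over loci under 1% made equal, the ratio of peak over early was -0.98 and thus short of 2-fold. The gene is the only one of the 8 with a pair of loci, both listed on scaffold NW_005100737.1 from 7425754 to 7576384. The main locus had 91.8, 35.8 and 138 FPKM and the other, an assembled entry that carries the same gene ID, had 7.33, 5.82 and 8.91 FPKM, in the same order of libraries.

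SLC1A5, also named ASCT2, exchanges glutamine and other small neutral amino acids. It had 70.3 FPKM in the library labelled early, 39.0 FPKM in that labelled peak and 82.5 FPKM in that labelled late. The library labelled peak was thus 1.80-fold below that labelled early, and that labelled late was 2.11-fold above that labelled peak. On the log2 scale the ratios were -0.85 and 1.08, and the latter was 0.83 with the sum over loci under 1% made equal. It is listed on scaffold NW_005100871.1 from 2120223 to 2131210.

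SLC38A2, or SNAT2, takes up small neutral amino acids such as alanine and glutamine with sodium, and its transcription and stability are known to respond to amino acid supply. Its levels lay close together, at 71.7, 68.6 and 85.3 FPKM. The log2 ratio of peak over early was -0.06, and it was 0.08 or 0.20 with either scaling to an equal sum, so that its sign is not settled. Between the libraries labelled late and peak it was 0.31. SLC38A2 was the most abundant of the 8 genes in the library labelled peak, with 26.7% of their summed FPKM there, against 19.1% in the library labelled early and 18.3% in that labelled late.

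SLC3A2, also known as 4F2hc or CD98, is the heavy chain that several SLC7 light chains need to reach the cell surface. It had 64.2 FPKM in the library labelled early, 58.8 FPKM in that labelled peak and 68.5 FPKM in that labelled late, the narrowest span among the 8 genes, with 1.17-fold between the highest and the lowest library. Its ratios of peak over early (-0.13) and late over peak (0.22) changed sign when the sum over loci under 1% was made equal, to 0.14 and -0.02, and the first was 0.02 with an equal sum over all loci.

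SLC7A5, or LAT1, is the light chain of the transporter for leucine and other large neutral amino acids. It had 41.1 FPKM in the library labelled early, 22.0 FPKM in that labelled peak and 53.8 FPKM in that labelled late. The log2 ratio was -0.90 for peak over early, 0.39 for late over early and 1.29 for late over peak, and 5.40% of protein-coding genes had a higher ratio in the last comparison. It stayed at least 2-fold apart between the libraries labelled late and peak under each rescaling and centring tried, where the ratio lay between 1.05 and 1.41. It is listed on scaffold NW_005100866.1 from 12790419 to 12817098.

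FPKM is per length, so levels of the heavy chain gene and its light chain genes can be set side by side within a library, and a ratio of 2 genes of the same library does not depend on the scaling between libraries. SLC7A5 was at 64.1% of the SLC3A2 level in the library labelled early, 37.4% in that labelled peak and 78.5% in that labelled late. Among the other light chains with values, SLC7A6 (y+LAT2, which exchanges cationic for neutral amino acids) was also lowest in that labelled peak, at 16.7%, 9.73% and 12.8%. SLC7A7 (y+LAT1), which is also abundant in macrophages, ran the other way, at 9.24%, 14.6% and 4.47%. SLC7A10 (asc-1, for small neutral amino acids) was at 6.55%, 10.9% and 9.57%, and SLC7A11 was at 1.61%, 3.51% and 1.20%. The 5 light chains together came to 98.2% of the heavy chain in the library labelled early, 76.2% in that labelled peak and 107% in that labelled late, without SLC7A8, whose value is not part of these sums. These are levels of RNA and do not measure how much of each complex is formed.

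**Figure D3:**
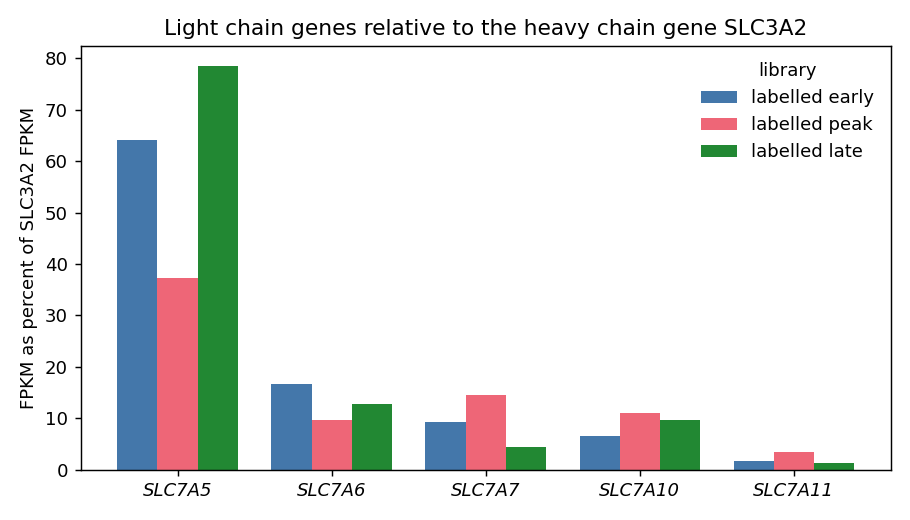
FPKM of 5 light chain genes as a percentage of the FPKM of the heavy chain gene SLC3A2 in the same library (vertical axis, linear, from 0), 1 bar per library and no error bars with 1 library per stage. SLC7A5 is the tallest in each library, at 64.1%, 37.4% and 78.5%, while SLC7A7 and SLC7A11 have their tallest bars in the library labelled peak.

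SLC7A11, or xCT, is the light chain that takes up cystine in exchange for glutamate and so supplies glutathione synthesis. It was the least abundant of the 8 genes, at 1.03 FPKM in the library labelled early, 2.06 FPKM in that labelled peak and 0.822 FPKM in that labelled late. The ratio of peak over early was 1.995-fold, just short of the 2-fold limit, and passed it with the ratios centred on the median of protein-coding genes (log2 ratio 1.02), on the luminal markers (1.08) or with an equal FPKM sum (1.14). The log2 ratio of late over peak was -1.33. In that comparison 11.2% of protein-coding genes had a lower ratio. With a pseudocount of 1 FPKM, which weighs on a gene at this level, the log2 ratio was -0.75. The glutathione synthesis genes GCLC, at 3.95, 5.40 and 4.75 FPKM, and GCLM, at 5.37, 7.18 and 6.14 FPKM, were also highest in the library labelled peak, short of 2-fold. Over all protein-coding genes above 0 in all libraries, the orders with that library highest held 30.3% and 13.1%. Both genes were named for their role, from a list of 25 in which 20 ratios of peak over early were below 0 and 5 above.

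SLC7A1, or CAT1, is the carrier of arginine, lysine and ornithine. It had 13.1 FPKM in the library labelled early, 9.09 FPKM in that labelled peak and 16.6 FPKM in that labelled late. The library labelled late stood 1.83-fold above that labelled peak, a log2 ratio of 0.87, and 10.6% of protein-coding genes had a higher one.

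SLC6A14, also named ATB0,+, is driven by sodium and chloride and accepts both neutral and cationic amino acids. It had 15.4 FPKM in the library labelled early, 15.8 FPKM in that labelled peak and 12.5 FPKM in that labelled late. The log2 ratio was 0.03 for peak over early and -0.33 for late over peak. Together with SLC3A2 and SLC38A2, it is one of the 3 genes whose libraries all lay within 1.26-fold of each other.

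Other amino acid transporters of the plasma membrane, further light chains included, and of the lysosome were listed from their known roles, and 23 of them had at least 1 FPKM in all 3 libraries. Of these 23, 10 had their lowest level in the library labelled peak and 7 their highest. Over the 12764 protein-coding genes above 0 in all libraries, the orders with that library lowest held 26.4% and 15.5%. Those with it highest held 30.3% and 13.1%. For peak over early, 6 were at least 2-fold lower and 1 was at least 2-fold higher, where of all 11087 protein-coding genes with at least 1 FPKM in all libraries 5.97% were lower and 5.66% higher. For late over early, 1 was lower and 0 were higher, beside 2.16% and 0.604% of those genes. For late over peak, 6 were at least 2-fold higher and 5 at least 2-fold lower, beside 7.71% and 10.4% of those genes. The carriers lower in the library labelled peak included SLC7A4, a CAT-like gene without an established substrate and the most abundant of the 23, at 85.5, 37.9 and 125 FPKM. They also included the glutamate transporter SLC1A2, at 47.4, 15.8 and 51.9 FPKM, and the glutamine transporter SLC38A3 (SNAT3), at 19.7, 5.01 and 20.2 FPKM. The creatine transporter SLC6A8 had 38.7, 15.4 and 41.8 FPKM. SLC7A4 and SLC6A8 are counted in the 6 lower for peak over early and in the 6 higher for late over peak. Neither is an established amino acid carrier.

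Some carriers were highest in the library labelled peak. SLC38A1 (SNAT1), a close relative of SLC38A2, had 3.91, 10.3 and 2.76 FPKM, a log2 ratio of 1.40 for peak over early. The cationic carrier SLC7A2 had 1.97, 3.77 and 1.30 FPKM, and the glycine transporter SLC6A9 had 3.06, 4.27 and 1.97 FPKM. SLC7A7, set beside SLC3A2 above, had 5.93, 8.58 and 3.06 FPKM. Within the SLC38 family the glutamine carriers therefore stood in opposite orders, with SLC38A3 lowest and SLC38A1 highest in the library labelled peak and SLC38A2 nearly level.

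**Figure D4:**
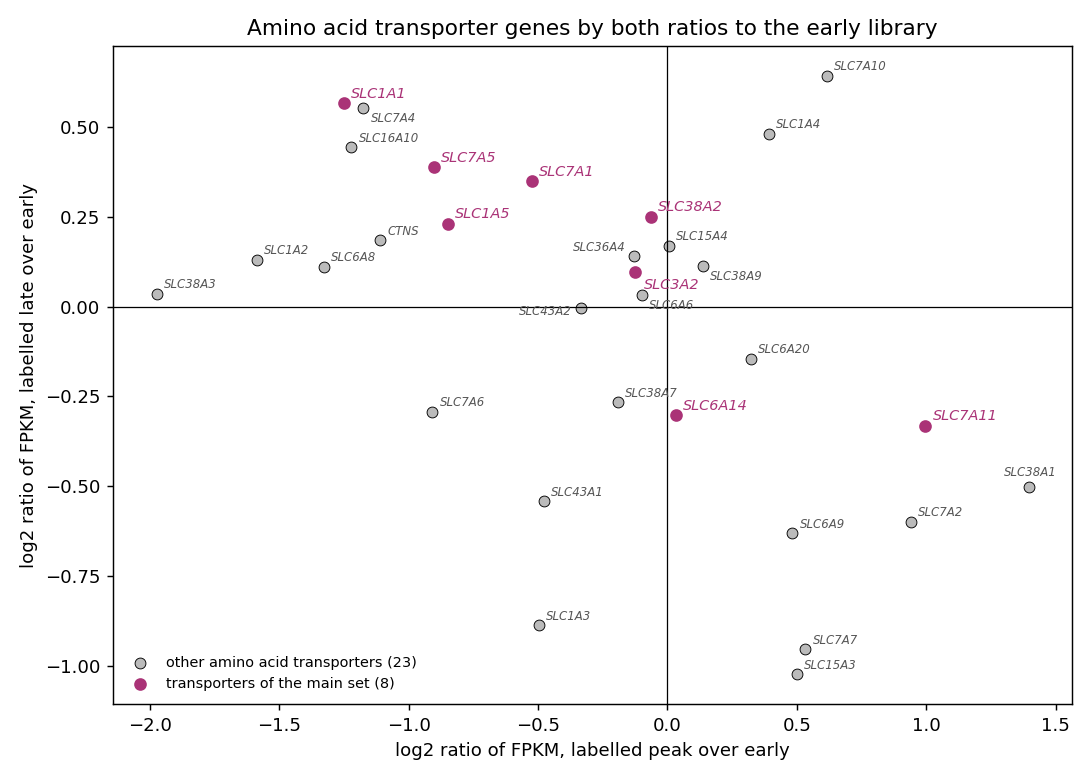
Each point is 1 amino acid transporter gene, placed by its log2 ratio of FPKM for peak over early (horizontal axis) and late over early (vertical axis), with the 8 genes of the main set in purple and 23 others with at least 1 FPKM in all libraries in grey. SLC1A1 (-1.25 and 0.57) lies beside SLC7A4 (-1.18 and 0.55) at the upper left, and SLC7A11 (0.997 and -0.33) lies at the right near SLC7A2, while SLC3A2 and SLC38A2 are close to the vertical axis, on a side that depends on the scaling.

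Each of the 8 genes was also set beside the one of the 23 carriers that was nearest in this plane, a measure that rests on 3 libraries only. SLC7A4 was nearest to SLC1A1, at a distance of 0.08 on the log2 scale, and SLC36A4, a lysosomal carrier, was nearest to SLC3A2, at 0.04. CTNS, which exports cystine from lysosomes, was nearest to both SLC7A5 and SLC1A5, at 0.29 and 0.27. It had 33.6, 15.6 and 38.3 FPKM. SLC7A2 was nearest to SLC7A11, at 0.27, SLC43A2 to SLC7A1, at 0.40, SLC15A4 to SLC38A2, at 0.11, and SLC38A7 to SLC6A14, at 0.23.

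Of the lysosomal carriers, 7 of 11 had values. For peak over early 2 were at least 2-fold lower, beside 6.69% of all genes. For late over early 1 was lower, beside 5.44%. For late over peak 2 were higher and 1 was lower, beside 8.57% and 16.2%. Apart from CTNS, the peptide and histidine transporter SLC15A3 was the one that differed at 1 FPKM or more in all libraries, with 8.50, 12.0 and 4.18 FPKM. SLC38A9, which reports lysosomal arginine to the growth regulator mTORC1, had 7.52, 8.27 and 8.13 FPKM. Of the mitochondrial carriers, 8 of 12 had values. SLC25A29, a carrier of basic amino acids and the most abundant of them, had 14.8, 5.71 and 17.3 FPKM, and the aspartate-glutamate carrier SLC25A12 had the reverse order, at 3.30, 7.25 and 3.13 FPKM.

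Genes that use the amino acids once they are inside the cell were compared in the same way. Values were found for 25 genes of amino acid catabolism and synthesis. For peak over early 4 were at least 2-fold lower and 2 higher, beside 6.69% and 10.5% of all genes. For late over early 4 were lower and 0 higher, beside 5.44% and 1.64%. With a pseudocount of 1 FPKM, 0 were apart in that comparison, beside 2.13%. For late over peak 5 were higher and 2 lower, beside 8.57% and 16.2%. The median log2 ratios of the list were -0.48, 0.14 and 0.70. In all, 24.0%, 16.0% and 28.0% of the list were at least 2-fold apart, beside 17.2%, 7.08% and 24.7% of all genes. Several of them handle arginine. ARG2, the mitochondrial arginase, had 19.4, 3.63 and 9.48 FPKM, and OAT, which turns ornithine toward proline, had 83.6, 35.7 and 92.4 FPKM. ASS1, which makes argininosuccinate from citrulline, had 3.41, 1.79 and 4.84 FPKM. BCAT2, the mitochondrial branched-chain aminotransferase that acts on leucine, isoleucine and valine, had 50.03, 18.4 and 38.2 FPKM, while its cytosolic counterpart BCAT1 had 0.512, 4.01 and 0.227 FPKM and was named after its values were seen. GLUL, which makes glutamine, was the most abundant of the list, at 118, 86.5 and 131 FPKM. CTH, which makes cysteine, had 9.48, 3.79 and 4.59 FPKM.

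The 20 cytosolic aminoacyl-tRNA synthetase genes, whose enzymes load amino acids onto tRNA, all had values. None was at least 2-fold apart in any of the 3 comparisons, beside 17.2% (peak over early), 7.08% (late over early) and 24.7% (late over peak) of all protein-coding genes. Their median log2 ratio was -0.26 for peak over early, 0.09 for late over early and 0.33 for late over peak. In the first, 18 of 20 ratios were below 0, beside 49.5% over all genes. In the last, 17 of 20 were above 0, beside 48.8%. Both counts depend on the scaling between libraries and were not retaken under another one. With the sum over loci under 1% made equal, the median over all genes was 0.27 for peak over early and -0.26 for late over peak. SARS, the most abundant of them, had 84.1, 81.7 and 92.2 FPKM.

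SLC7A5, SLC3A2, SLC7A1, SLC7A11 and SLC38A2 are known targets of ATF4, the transcription factor of the amino acid response. Values were found for 19 listed response genes. For peak over early 3 were at least 2-fold lower and 1 higher, beside 6.69% and 10.5% of all genes. For late over early 1 was lower, beside 5.44%. For late over peak 3 were higher and 1 lower, beside 8.57% and 16.2%. The share of the list at least 2-fold apart was 21.1%, 5.26% and 21.1% in these comparisons, beside 17.2%, 7.08% and 24.7% of all genes. ATF4 itself had 111, 97.4 and 119 FPKM, and ASNS, the asparagine synthetase that is a standard target, had 10.7, 10.1 and 15.8 FPKM. NUPR1, a stress-induced regulator and the most abundant of the list, had 301, 132 and 268 FPKM. CHAC1, which degrades glutathione, had 4.03, 1.51 and 1.22 FPKM, and TRIB3, a feedback inhibitor of ATF4, had 3.85, 1.57 and 2.24 FPKM. STC2, the gene of the list that was higher for peak over early, had 0.190, 4.43 and 0.147 FPKM. It was named after its values were seen and lies under 1 FPKM in the libraries labelled early and late. The serine synthesis gene PSPH had 20.7, 17.1 and 36.3 FPKM, and MTHFD2, of mitochondrial folate metabolism, had 17.9, 11.7 and 23.4 FPKM. The members of this list did not all share one order. For peak over early, 14 of the 19 ratios were below 0 and 5 above, where 49.5% of ratios over all genes were below 0. This count depends on the scaling between libraries too and was not retaken under another one. Of the 5 transporters, SLC7A5, SLC3A2, SLC7A1 and SLC38A2 were highest in the library labelled late and lowest in that labelled peak. SLC7A11 had the opposite order. For SLC3A2 and SLC38A2 the place of the library labelled peak depended on the scaling. A part of ATF4 in these levels was not tested.

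**Figure D5:**
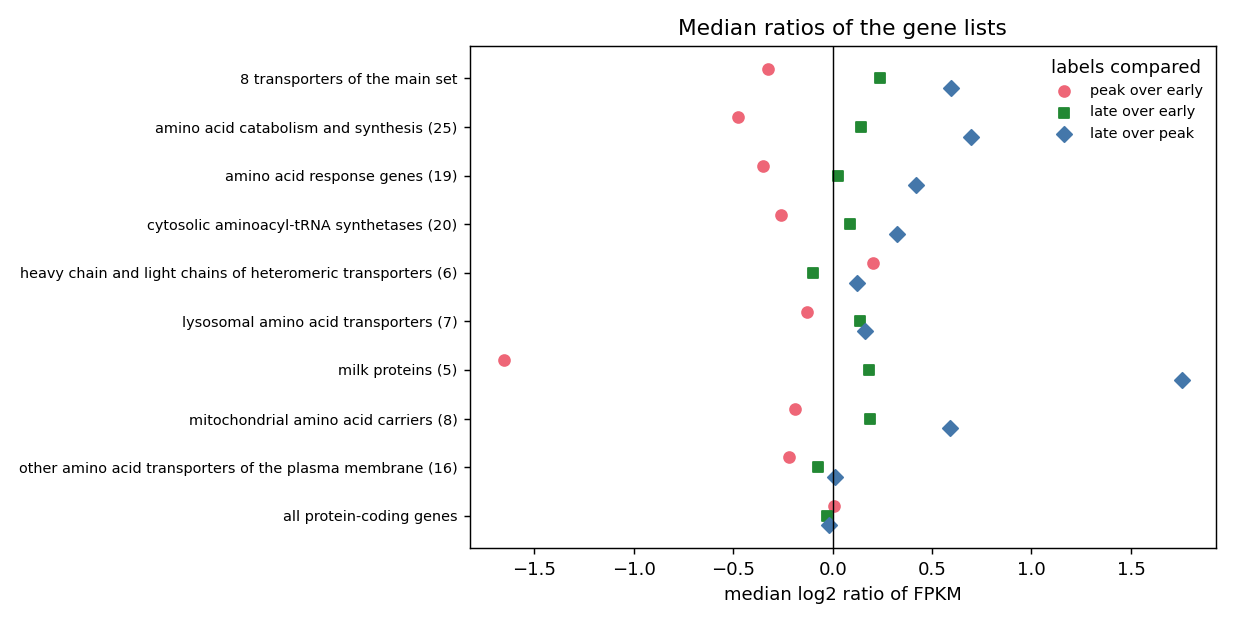
Median log2 ratio of FPKM (horizontal axis) of the 8 transporter genes, of 8 companion lists (number of genes with values in parentheses) and of all protein-coding genes, with 1 marker per comparison by label. Milk proteins lie farthest from 0, at -1.65 for peak over early and 1.76 for late over peak (the latter over 4 genes), and the 8 transporters lie at -0.32 and 0.59, with all protein-coding genes at 0.01 and -0.02.

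Milk protein genes were also lower in the library labelled peak than in that labelled early. For peak over early, 5 of 5 genes with values were at least 2-fold lower, beside 6.69% of all genes. For late over peak 4 of 4 above 0 in both libraries were higher, beside 8.57%. CSN1S1 and CSN3, which encode caseins, had log2 ratios of -1.06 and -2.67, against -0.90 for SLC7A5 and -1.25 for SLC1A1. PAEP, the whey protein beta-lactoglobulin and the most abundant of the list, had 84874, 26998 and 83113 FPKM, and GLYCAM1 had 6037, 2085 and 7237 FPKM. CSN2 and CSN1S2 were not matched by symbol.

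These are libraries of whole tissue, in which fewer cells of a type and less RNA per cell cannot be told apart. The summed level of the 11 luminal epithelial markers was 1932, 1320 and 1867 FPKM, and their median log2 ratio was -0.09 for peak over early. ELF5, a luminal transcription factor, stood at 879, 244 and 875 FPKM. Without it, a choice made after its values were seen, the other 10 markers summed to 1053, 1076 and 991 FPKM. Of all 11 markers, 5 were higher and 6 lower in the library labelled peak than in that labelled early. KRT7, KRT8 and KRT18 were among the higher ones, and EHF, EPCAM, CLDN3 and CLDN7 among the lower ones. EHF had 181, 93.6 and 173 FPKM. With ratios centred on the luminal markers, SLC1A1 was still at -1.16 and SLC7A5 at -0.82 for peak over early. Immune markers moved the other way. The 5 T cell markers summed to 16.4, 42.0 and 6.58 FPKM, with CD3E at 0 in those labelled early and peak, and the 5 macrophage markers with values summed to 120, 203 and 62.3 FPKM, among them C1QA at 58.5, 107 and 28.4 FPKM. The 4 plasma cell markers summed to 286, 487 and 352 FPKM. SLC7A11 and SLC6A14 had the same order as the T cell and macrophage sums. So did 6 of the 23 other carriers, among them SLC7A7, SLC38A1 and SLC15A3. This order was found in 30.3% of protein-coding genes above 0 in all libraries. The part of T cells and macrophages in the levels of these carriers was not tested. Endothelial markers, 6 of 6 with values, summed to 143, 134 and 152 FPKM, fibroblast markers, 6 of 6, to 664, 549 and 542 FPKM, and basal and myoepithelial markers, 7 of 8, to 227, 231 and 216 FPKM. The 3 adipocyte markers with values summed to 18.1, 5.85 and 6.41 FPKM, and the 3 proliferation markers to 3.01, 3.79 and 2.14 FPKM.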

How the data were processed

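Per the labels and the study's methods, the authors pooled RNA of 5 goats per stage, made 3 stranded libraries, trimmed the reads, mapped them with TopHat2 2.0.9 and Bowtie2, assembled and merged transcripts with Cufflinks 2.1.1 and Cuffmerge, and computed FPKM with Cuffdiff. The deposited FPKM of 1 column per library were used as they stand. Between 95.9% and 99.4% of the values with 7 or more digits end in 5, as means of 2 values with 6 digits would; whether values were averaged is not given in the sources used here. Positions are given on scaffolds as deposited. The methods name a Capra hircus genome release and an NCBI assembly record, and which of them the deposited scaffold names belong to was not settled here.

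Gene IDs were matched to the ARS1.2 gene table for symbols only, and 14290 of the 15161 loci that carry 1 gene ID were found there. Loci with the same ID were summed. A further 116 loci with several IDs or a miRNA ID, and 34764 without a gene ID, were not used as genes. Genes were called at a ratio of at least 2-fold, over genes above 0 in both libraries. With 1 library per stage no test was made and no depth per value is known. The genes and lists were chosen with earlier results of these data known. Named were all 10 transporters, the most abundant gene of each list and up to 3 genes per comparison and direction with the largest ratio at 1 FPKM or more in all libraries. Other genes were named for their role. One gene that the rule names is not reported here. Fold counting was tested on simulated data with planted changes beyond the limit and little noise. That checks the counting and not the noise between pools. Motifs and sequences were not analysed here. Alternatives were pseudocounts of 0.1 and 1 FPKM, folds of 1.5 and 4, a filter of 1 FPKM, keeping genes at 0 with 0 set to 0.001, the main locus only, 4 scalings, and an exchange of the peak and late columns. Python 3.11.15, numpy 2.4.6, pandas 2.3.3 and matplotlib 3.10.9 were used.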

Additional observations from a re-analysis of the deposited data

How the results depend on the processing

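Leaving out a replicate was not possible with 1 pool per stage, and the precision of the values is unknown. No paired analysis was possible because the groups hold 1 pool each. The ratios kept their sign under the scalings, pseudocounts and filters tried, exchange aside, for 21 of 24 combinations of gene and comparison, the exceptions being peak over early of SLC3A2 and SLC38A2 and late over peak of SLC3A2. Making the FPKM sum over loci under 1% equal moved the median log2 ratio of all protein-coding genes to 0.27 for peak over early and -0.26 for late over peak, and an equal sum over all loci moved it to 0.15 for peak over early. Centring on the luminal markers moved it to 0.10 for late over peak.

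Of the 8 transporters, 1 was at least 2-fold apart for peak over early. The number was 4 at a fold of 1.5 and 0 at a fold of 4, and 2, SLC1A1 and SLC7A11, with ratios centred on protein-coding genes, centred on luminal markers or scaled to an equal FPKM sum. With the sum over loci under 1% made equal it was 1, SLC7A11 in place of SLC1A1. For late over peak the 4 became 0 at a fold of 4. They became 3 without SLC7A11 with a pseudocount of 1 or the 1 FPKM filter, and 3 without SLC1A5, at 0.83, with the sum over loci under 1% made equal. Protein-coding genes at least 2-fold apart (2224 for peak over early, 905 for late over early and 3169 for late over peak) numbered 1194, 277 and 1983 with a pseudocount of 1, 4705, 2083 and 5516 at a fold of 1.5, 380, 200 and 920 at a fold of 4, and 1433, 323 and 2021 with at least 1 FPKM in both libraries. A looser or stricter fold moves these counts by construction. For the other changes, the cause was not tested.

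Exchanging the columns labelled peak and late gave 0 transporters and 905 genes for peak over early, and 1 and 2224 for late over early. It turned SLC1A1 to 0.57 for peak over early and -1.82 for late over peak, and for late over peak SLC7A5 to -1.29, SLC1A5 to -1.08 and SLC7A11 to 1.33. Over every alternative together, 224 counts of genes of the companion lists stayed within 1.5 times and 64 did not.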

Other observations

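Assembled entries without a gene ID were listed within 10000 bases of 7 of the 8 transporter genes with values, the exception being SLC3A2. This search was made after the data were seen. SLC1A1 had 27 of them. Of these, 20 carry exactly the span of SLC1A1, so their positions within it are not given, and 18 of the 20 were highest in the library labelled late, with medians of 1.45, 0.921 and 3.26 FPKM from the label early over peak to late. The other 7 lay outside the gene, and 7 of 7 were highest in the library labelled late and lowest in that labelled peak, with medians of 0.620, 0.134 and 2.66 FPKM. The share of all loci without a gene ID that have these orders was not computed. Entries beside 1 gene may be pieces of 1 transcript. The counts here and below are therefore not read as a result about the genes.

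Beside SLC7A5, 4 such entries were listed on one side of the gene, with medians of 1.70, 1.07 and 2.81 FPKM, and 4 of 4 were highest in the library labelled late, as SLC7A5 was. Beside SLC7A1 the 3 entries ran in another order than the gene. They were highest in the library labelled early, with medians of 2.29, 1.26 and 1.15 FPKM, while SLC7A1 itself was highest in that labelled late. All these entries lay at or below 11.1 FPKM, far under the genes beside them except SLC7A11, whose 1 entry had 1.45, 2.66 and 2.32 FPKM. Strand was not given for any entry, and whether they belong to transcripts of the neighbouring gene was not tested.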
